A study of Mus musculus with 2 samples.

Results

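The genes described here are the splicing regulators of mouse skeletal muscle, taken as the annotated genes whose symbols belong to the Srsf, Hnrnp, Tra2, Rbfox, Mbnl, Celf and Ptbp families together with Rbm24, Rbm20 and Qk. The annotation holds 51 such genes, and 44 of them were listed in both libraries, out of 15631 annotated genes listed in either. Celf3, Celf4, Celf5, Celf6, Mbnl3, Rbfox3 and Srsf12 were listed in neither library, which allows each a level of at most 2.62 CPM (replicate 1) and 3.19 CPM (replicate 2), from a limit of 3 reads. The members took 4235 reads over 590 transcript models in replicate 1 and 3520 reads over 468 models in replicate 2. That was 0.370% and 0.374% of mouse reads, so the members' depth is small and limits the precision of the shares below.

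Long-read RNA sequencing was done on total RNA of gastrocnemius, the fast calf muscle, from male B6CASTF1/J mice, an F1 hybrid strain, aged 10 days. The series holds 1 group of 2 libraries from separately labelled animals and no control group, so differences below compare replicate 1 with replicate 2 and not conditions, and p-values measure only the distance between those libraries. Replicate 1 held 1145490 mouse reads and replicate 2 held 941841. The 5 muscle fibre markers Acta1, Ckm, Myh4, Atp2a1 and Actn3 together had 239560 CPM (replicate 1) and 229975 CPM (replicate 2), and the neuronal genes Snap25 and Rbfox3 were not listed. Single fibre markers were less alike than that sum: Myh4, the fast IIb myosin, had 23388 CPM in replicate 1 and 8871 CPM in replicate 2, Atp2a1 had 82292 and 63671 CPM, and Ckm (49770 and 60459 CPM) and Acta1 (78414 and 91770 CPM) were lower in replicate 1. The 4 fibroblast markers Col1a1, Col3a1, Dcn and Pdgfra together had 18609.5 CPM (replicate 1) and 10926.5 CPM (replicate 2).

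Splicing regulators bind exons and introns of many transcripts and decide which exons the spliceosome joins. SR proteins mostly favour the exons they bind, hnRNPs often oppose them, and the MBNL, CELF, RBFOX, PTBP, Rbm24, Rbm20 and Quaking proteins set cell-type programmes, with antagonism of MBNL and CELF proteins best known from developing heart and skeletal muscle. Many of these genes also control their own transcripts: a "poison" exon with an early stop codon, or a spliced intron behind the normal stop, sends the transcript to nonsense-mediated decay. MBNL transcripts carry a short exon that is included in embryonic tissue, skipped in adult muscle and known to favour nuclear localisation of the protein.

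The sequences that the results turn on are shown first, 5′ to 3′ on the transcript strand, from GENCODE M21 transcripts with mm10 coordinates. The alternative exons of 54 and 95 nt in Mbnl1 and Mbnl2 are shown because the paralogues hold near-copies of both: the 54-nt exon was mostly skipped in both genes, and the 95-nt exon was used at unlike levels. Capitals mark the bases that differ between the paralogues. The copies share 46 of 54 bases (85.2%) and 81 of 95 bases (85.3%).
Mbnl1 54-nt exon (chr3:60614683-60614736, + strand, coding): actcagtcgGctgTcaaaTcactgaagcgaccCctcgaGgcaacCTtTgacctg
Mbnl2 54-nt exon (chr14:120395712-120395765, + strand, coding): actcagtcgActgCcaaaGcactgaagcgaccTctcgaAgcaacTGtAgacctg
Mbnl1 95-nt exon (chr3:60622146-60622240, + strand, coding): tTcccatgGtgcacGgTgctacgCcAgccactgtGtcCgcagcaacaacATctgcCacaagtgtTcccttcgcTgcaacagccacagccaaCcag
Mbnl2 95-nt exon (chr14:120404638-120404732, + strand, coding): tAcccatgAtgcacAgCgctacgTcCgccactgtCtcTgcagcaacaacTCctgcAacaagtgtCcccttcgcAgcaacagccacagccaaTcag

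Poison exons are shown from the first base of the exon to the stop codon that the annotation places in it, with that stop codon in capitals. From these stops to the last exon junction of the annotated transcript lay 548 nt in Srsf3, 617 nt in Srsf4, 534 nt in Srsf6, 700 nt in Srsf9, 67 nt in Srsf11 and 807 nt in Hnrnpll.
Srsf3 456-nt exon (chr17:29039454-29039909, + strand): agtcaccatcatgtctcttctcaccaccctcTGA
Srsf4 207-nt exon (chr4:131884276-131884482, + strand): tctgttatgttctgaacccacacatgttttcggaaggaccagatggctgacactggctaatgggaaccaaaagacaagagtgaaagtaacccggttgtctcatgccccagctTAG
Srsf6 268-nt exon (chr2:162932815-162933082, + strand): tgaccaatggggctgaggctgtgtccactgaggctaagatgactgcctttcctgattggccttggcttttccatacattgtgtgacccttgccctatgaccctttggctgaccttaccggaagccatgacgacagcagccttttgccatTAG
Srsf9 358-nt exon (chr5:115328347-115328704, + strand): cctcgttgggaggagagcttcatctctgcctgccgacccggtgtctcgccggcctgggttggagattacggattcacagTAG
Srsf11 117-nt exon (chr3:158023243-158023359, - strand): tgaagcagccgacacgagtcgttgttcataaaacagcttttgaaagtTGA
Hnrnpll 83-nt exon (chr17:80044940-80045022, - strand): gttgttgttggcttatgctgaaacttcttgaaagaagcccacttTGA

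Ptbp1, Hnrnpd and Hnrnpab carry cassette exons whose use is given below. The skipping of the 34-nt exon of Ptbp1, known to shift the reading frame and to send the transcript to decay, was seen in few reads. The 147-nt exon of Hnrnpd and the 141-nt exon of Hnrnpab lie in paralogous genes, and a global alignment of them has 92 identical bases in 154 columns (59.7%, with 20 gap columns). No base is in capitals here.
Ptbp1 34-nt exon (chr10:79862014-79862047, + strand, coding): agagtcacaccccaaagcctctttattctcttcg
Hnrnpd 147-nt exon (chr5:99963731-99963877, - strand, coding): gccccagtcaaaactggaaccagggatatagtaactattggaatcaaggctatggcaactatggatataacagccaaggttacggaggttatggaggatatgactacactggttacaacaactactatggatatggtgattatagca
Hnrnpab 141-nt exon (chr11:51601750-51601890, - strand, coding): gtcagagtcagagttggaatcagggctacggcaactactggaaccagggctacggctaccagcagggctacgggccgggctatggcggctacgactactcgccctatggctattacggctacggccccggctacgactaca

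Levels are given as CPM, reads per 1000000 mouse reads, with the models of a gene added up; as 1 long read stands for 1 molecule, they are not divided by length. The hnRNPs had the highest summed level, 2127 ± 62.5 CPM (SD, n = 2) over 20 genes, against 616 ± 29.5 CPM over the 12 listed SR and Tra2 genes. Hnrnpk, which binds C-rich RNA, was the highest member at 424 CPM in replicate 1 and 469 CPM in replicate 2 (chr13:58391142-58403343, - strand). Hnrnpa2b1, an RNA transport and splicing factor, followed at 351 and 329 CPM (chr6:51460932-51469894, - strand). Hnrnpu, which associates with chromatin and nuclear scaffold, had 223 and 241 CPM, and Hnrnpf, a binder of G-rich RNA, had 236 and 222 CPM. These last 2 genes changed places between the libraries, so their order is within the spread. Hnrnpd, the RNA decay factor AUF1, had 112 CPM (replicate 1) and 123 CPM (replicate 2). Its paralogue Hnrnpab had 89.0 and 96.6 CPM, and Hnrnpdl had 66.3 and 61.6 CPM. Hnrnpl, a binder of CA repeats, had 89.0 and 121 CPM, and its paralogue Hnrnpll 39.3 and 47.8 CPM. Hnrnpa1, a classic antagonist of Srsf1, had 93.4 and 101.9 CPM, and Hnrnpa3 had 75.1 and 64.8 CPM. Hnrnph2 had 68.1 and 93.4 CPM and took 73.6% (64.5 to 81.0) and 84.6% (76.5 to 90.3) of the reads of its pair with Hnrnph1. Hnrnpul1 had 56.7 and 54.1 CPM, Hnrnpr 52.4 and 64.8 CPM, and Hnrnpc, which binds U-rich RNA, 34.9 and 32.9 CPM. The remaining hnRNPs, Hnrnph1, Hnrnpm, Hnrnph3, Hnrnpa0 and Hnrnpul2, had under 20 reads in at least 1 library.

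Among the SR genes, Srsf2 was highest at 113 CPM in replicate 1 and 118 CPM in replicate 2. Srsf5, Srsf3, Srsf6 and Srsf4 formed a closely spaced group with means from 70.3 to 80.2 CPM, and their order differed between libraries. Srsf11 had 47.1 and 53.1 CPM, Srsf7 had 35.8 and 40.3 CPM, Srsf9 had 31.4 and 40.3 CPM, and Srsf10 had 24 reads in replicate 1 and 36 in replicate 2. Srsf1, the founding member of the family, had only 21.8 and 31.9 CPM, so that Srsf2 took 83.9% (95% Wilson interval 77.3 to 88.8) of the reads of this pair in replicate 1 and 78.7% (71.3 to 84.7) in replicate 2. Tra2b, an SR-like activator, had 14.8 and 12.7 CPM, and its paralogue Tra2a had 4 reads in replicate 1 and 1 in replicate 2.

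Rbm24, a splicing activator of heart and skeletal muscle, was the most abundant regulator outside the hnRNPs, at 291 CPM in replicate 1 and 308 CPM in replicate 2 (chr13:46418434-46431095, + strand). Rbm20, the regulator of titin splicing, had 48.0 and 48.8 CPM, and of the reads of this pair Rbm24 took 85.8% (82.0 to 88.9) in replicate 1 and 86.3% (82.2 to 89.6) in replicate 2. Mbnl2 had 224 CPM (replicate 1) and 184 CPM (replicate 2; chr14:120275669-120431697, + strand), and Mbnl1 had 60.2 and 53.1 CPM. Mbnl2 thus took 78.8% (74.1 to 82.9) and 77.6% (71.7 to 82.6) of MBNL reads. The 2 CELF genes listed summed to 71.6 ± 17.2 CPM, against 261 ± 33.8 CPM for the MBNL genes. Celf2 had 67.2 and 43.5 CPM and Celf1 16.6 and 15.9 CPM, and Celf2 took 80.2% (71.1 to 86.9) of the reads of its pair with Celf1 in replicate 1 and 73.2% (60.4 to 83.0) in replicate 2. Few reads of this pair were on annotated transcripts, 5 and 1 of Celf2 and 5 and 3 of Celf1, and these do not keep that order. Qk, the Quaking gene of RNA stability and muscle splicing, had 171 CPM (replicate 1) and 175 CPM (replicate 2).

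Of the RBFOX genes, Rbfox2 had 75.9 CPM (replicate 1) and 40.3 CPM (replicate 2), and Rbfox1, the form enriched in muscle and neurons, had 26.2 and 19.1 CPM. Rbfox2 took 74.4% (65.8 to 81.4) and 67.9% (54.8 to 78.6) of their reads. Without unspliced reads of the genomic class, Rbfox2 had 39 reads in replicate 1 and 14 in replicate 2, and Rbfox1 had 25 and 15, so the order of the pair turned in replicate 2 (60.9%, 48.7 to 71.9, and 48.3%, 31.4 to 65.6). Over annotated transcripts alone Rbfox2 had 3 reads in replicate 1 and 1 in replicate 2, and Rbfox1 had 4 and 3. Of the polypyrimidine tract binders, Ptbp1 had 28.8 and 29.7 CPM and Ptbp2, known as the neuronal paralogue, had 8.73 and 9.56 CPM. Ptbp3 had 1 and 2 reads. Ptbp1 took 76.7% (62.3 to 86.8) of the Ptbp1 and Ptbp2 reads in replicate 1 and 75.7% (59.9 to 86.6) in replicate 2. Hnrnpa0, Hnrnpul2, Ptbp2, Ptbp3 and Tra2a had under 20 reads over both libraries, which left 39 members for the test between libraries.

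**Figure D1:**
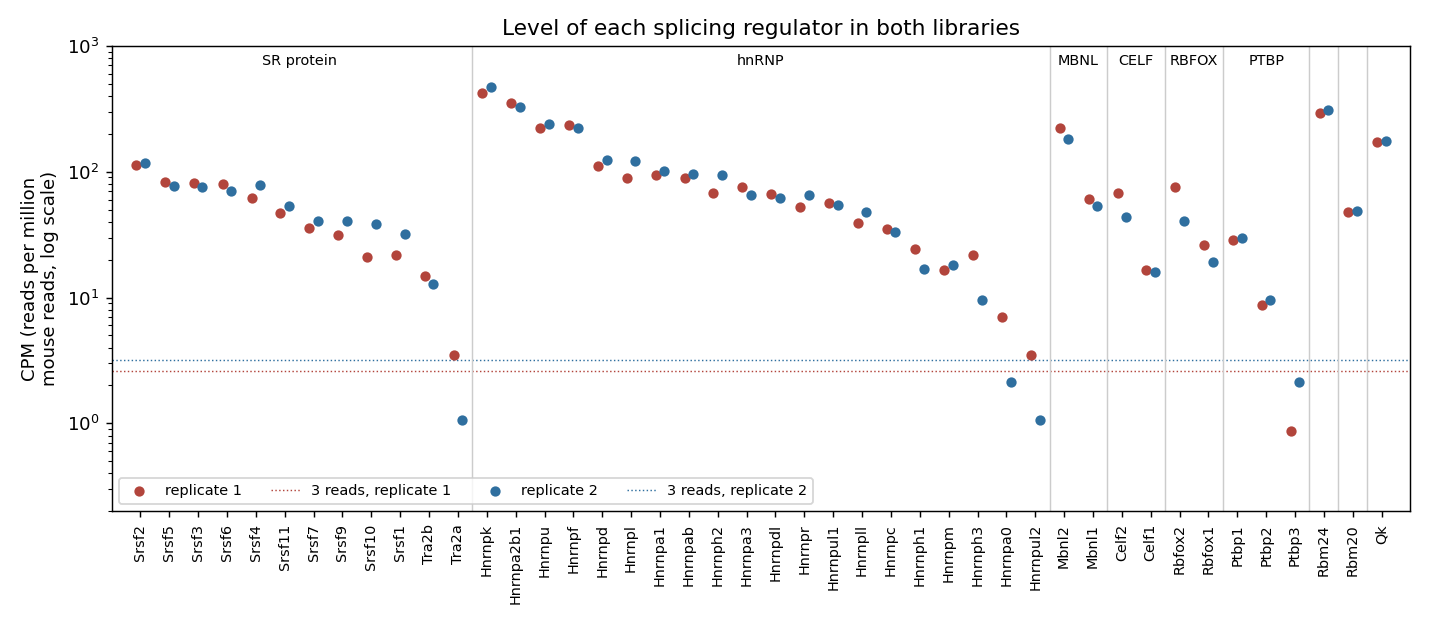
Level of the 44 listed splicing regulators in CPM on a log scale, by family, with replicate 1 left of replicate 2 for each gene and dotted lines at 3 reads in each library. Hnrnpk was highest in both libraries, and Rbm24, Mbnl2 and Qk lay above every SR gene.

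Of levels between libraries, none of the 39 tested members passed an adjusted p under 0.05 with a 2-fold difference (exact two-sided conditional binomial test, Benjamini-Hochberg over 7516 genes), where 2.75% of all tested genes did. At any fold 1 member passed, against 9.11% of all genes (4.47% passed higher in replicate 1), and 7 members (17.9%) had an unadjusted exact p under 0.05, against 20.3% of all genes. The member was Rbfox2, a binder of the GCATG element, with 87 reads (75.9 CPM) in replicate 1 and 38 reads (40.3 CPM) in replicate 2. Its log2 fold of replicate 1 over replicate 2 was 0.91 with an adjusted exact p of 0.0139. Most Rbfox2 reads were unspliced and of the genomic class, 48 of 87 in replicate 1 and 24 of 38 in replicate 2; without that class the log2 fold was 1.20 and the adjusted exact p 0.0563. The median log2 fold was -0.03 over the 39 members and 0.01 over all tested genes. The fibroblast marker sum was also higher in replicate 1, through Col1a1 and Col3a1, while Dcn had 512 CPM in replicate 1 and 611 CPM in replicate 2 (log2 fold -0.26, adjusted exact p 0.0331); its part in the Rbfox2 value was not tested, and in bulk tissue fewer cells of a type and less RNA per cell cannot be told apart.

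Fewer of the members' reads fell on annotated transcripts than over all genes. The deposited classes are annotated, incomplete match to an annotated transcript, new combination of annotated splice sites, use of a new splice site, and genomic (overlap without matching introns). Annotated transcripts took 56.5% of the members' reads in replicate 1 and 58.6% in replicate 2, against 72.1% and 76.4% over all annotated genes. Models classed as using a new splice site took 10.6% and 11.5% of the members' reads, against 4.82% and 8.15% over all genes. Hnrnpk alone held 224 of these 450 reads in replicate 1 and 231 of 405 in replicate 2. That class did not hold every read with an unannotated intron. In Hnrnpk, 446 reads in replicate 1 and 414 in replicate 2 used 1 such intron. In Qk, 107 and 95 reads did, with 84 and 72 Qk reads in the class. Without Hnrnpk the members' share in that class was 6.03% and 5.65%, against 4.81% and 8.13% over all genes without Hnrnpk. It thus lay below the share over all genes in replicate 2. The annotated share of the members without Hnrnpk was 63.8% and 67.1%, against 72.2% and 76.4% over all genes without it. Per gene, the median annotated share was 66.7% and 75.0% over the 33 members with 20 or more reads in each library, against 85.0% and 85.7% over 4697 such genes. The most used transcript held a median of 51.1% and 50% of a member's reads, against 80.0% and 80.7% over all these genes. Reads on transcripts annotated for nonsense-mediated decay or as retained introns were present in 17 of the 33 members in replicate 1 (51.5%) and 16 in replicate 2 (48.5%), against 17.5% and 14.7% of all these genes. Such transcripts were nevertheless rare: those annotated for decay took 1.06% and 0.795% of the members' reads, against 0.120% and 0.121% over all genes. Those annotated as retained introns took 0.708% and 0.483%, against 0.428% and 0.486% over all genes, so they were not in excess in replicate 2. Only annotated transcripts carry these labels, so reads of unannotated models with a decay-linked exon or a kept intron are not counted in these shares.

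The annotated share ranged from 0% to 100% among members, the upper end set by Hnrnpa0 with 8 of 8 reads in replicate 1 and 2 of 2 in replicate 2. Hnrnph2 reads were annotated in 97.1% (mean of both libraries), Srsf6 reads in 94.6% and Hnrnpr reads in 94.2%. At the other end, Mbnl1 had 3.17%, Rbfox2 3.04%, Celf2 4.47% and Rbm20 12.5%, and Hnrnpk had no annotated read among 486 and 442. Hnrnpm likewise had 0 of 19 and 0 of 17 reads on annotated transcripts. A single annotated transcript dominated Hnrnpu, where its main coding transcript held 87.5% of reads in replicate 1 and 91.2% in replicate 2, and Rbm24, where it held 81.4% and 84.1%. Several SR genes were alike in this, with 87.0% and 84.8% in Srsf6, 83.3% and 89.5% in Srsf9, 82.3% and 82.9% in Srsf2, and 81.7% and 83.1% in Srsf3. In Mbnl2, 1 new combination of annotated splice sites held 55.3% and 63.6%. Of 111 member transcripts tested between libraries none was called different (two-sided Fisher's exact test with Benjamini-Hochberg, 0.632% of all 9180 called), and 9 (8.11%) had an unadjusted exact p under 0.05, against 7.55% of all.

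**Figure D2:**
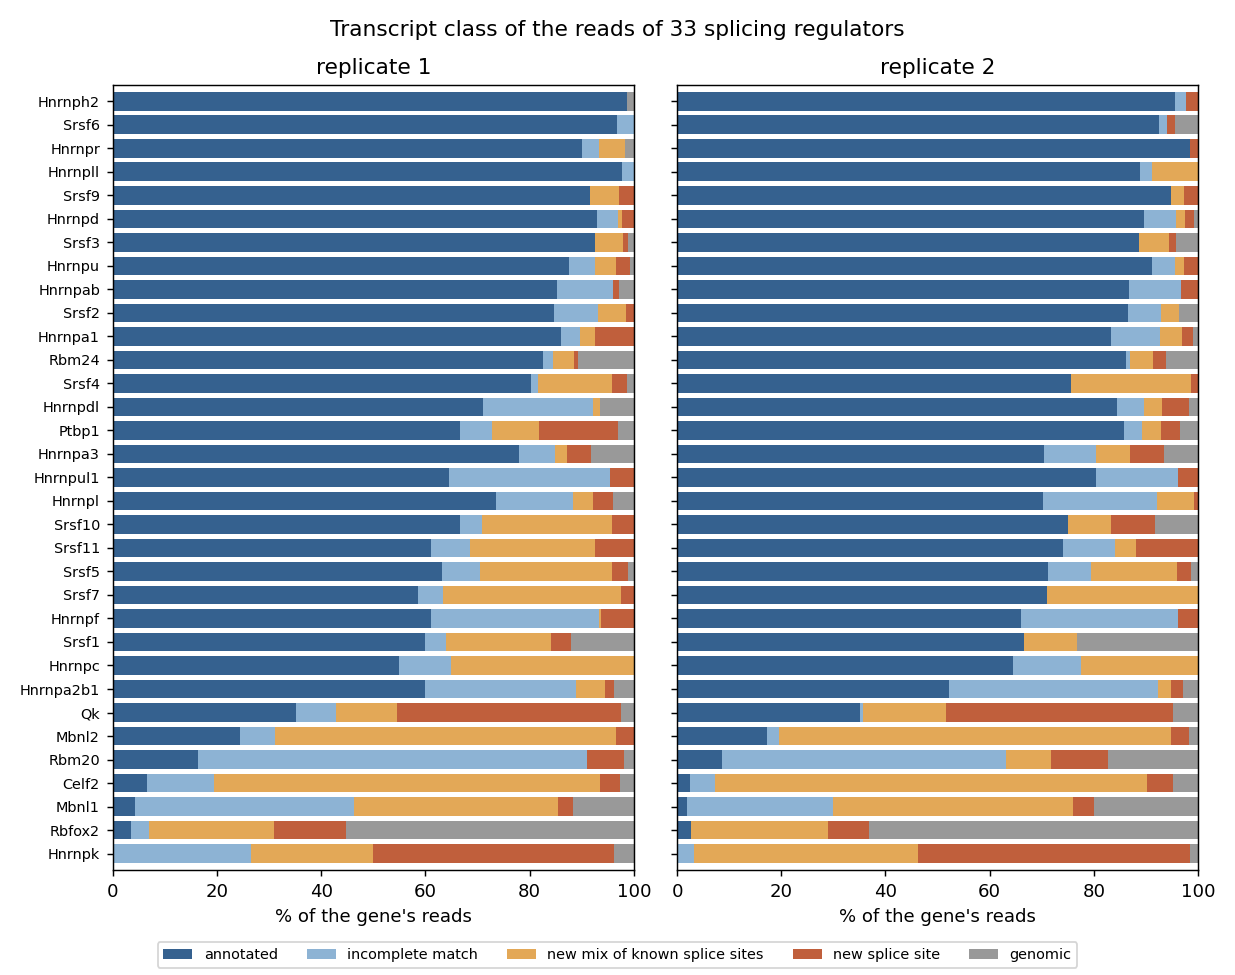
Share of each gene's reads in each transcript class for the 33 members with 20 or more reads in each library, replicate 1 at left and replicate 2 at right, sorted by the mean annotated share. The bars run from Hnrnph2, almost wholly annotated, down to Hnrnpk, with no annotated read in either library.

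Nearly all spliced Hnrnpk reads shared 1 unannotated junction. The annotation places a 16-nt microexon (chr13:58393853-58393868) in 8 of its 34 transcripts, all of them coding, and it had 0 reads in both libraries. Instead, 446 spliced reads in replicate 1 (95.5%) and 414 in replicate 2 (95.2%) used an intron that the annotation does not hold. These reads extended the preceding 84-nt exon by 16 nt (chr13:58394060-58394075) into a 100-nt exon. The annotation also holds no intron from the end of the 84-nt exon straight to the acceptor used here (chr13:58393775-58394075). That direct junction was used by 10 reads in replicate 1 (2.14%) and 10 in replicate 2 (2.30%). Both 16-nt sequences are on the - strand, with the 8 differing bases in capitals; they share the other 8.
Hnrnpk annotated microexon: gGtgGTtCtGGataTG
Hnrnpk exon extension: gTtgAGtAtCAataAT
The extension and the microexon have the same length, so the spliced length of these models equals that of a transcript with the microexon. Read bases were not analysed here, so which of the 2 sequences the reads carry was not tested. Class names of such models are less stable than their introns: the same chain of 14 Hnrnpk introns was classed as an incomplete match in replicate 1 (116 reads) and as a new combination in replicate 2 (95 reads). Over all members, 9 of 144 intron chains found in both libraries were classed differently.

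Most Qk reads were on models with an unannotated acceptor, whose splice-site bases were not analysed here. An intron that ends 24 nt beyond the annotated acceptor (chr17:10216436-10217715, - strand) was used by 107 of 180 reads in replicate 1 (59.4%, interval 52.1 to 66.3) and 95 of 156 in replicate 2 (60.9%, 53.1 to 68.2). The libraries differed by less than these intervals. Quaking isoforms differ in their C termini, encoded by alternative last exons. Of Qk spliced reads, 77.6% in replicate 1 and 72.6% in replicate 2 used the last intron chr17:10209632-10213358, 16.9% and 19.7% used chr17:10214195-10216159, and 3.83% and 6.37% used chr17:10215475-10216159.

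Alternative exons were measured on single reads, as the reads that contain exactly an exon, in percent of those and the reads that skip it whole; reads with another version of the exon enter neither. Of 267 internal exons of members with 20 or more spanning reads in each library, 31 (11.6%) were included in 5% to 95% of pooled reads, against 4.55% of 37618 exons over all genes. At least 1 such variable exon was found in 19 of 32 members (59.4%) and in 991 of 4166 genes (23.8%). Variable exons had a median of 51.5 spanning reads per library in members and 47.0 over all genes. Of the 31, 17 are wholly or partly coding in protein-coding transcripts. A further 10 occur in transcripts annotated for decay and in no protein-coding one, 3 lie in untranslated parts and 1 is unannotated. A length that is not a multiple of 3 was found in 13 of 31 (41.9%), against 45.0% of all variable exons. None of the 31 was called different between libraries (two-sided Fisher's exact test with Benjamini-Hochberg, 0.175% of all 1712 variable exons called), and 2 (6.45%) had an unadjusted exact p under 0.05 against 5.32% of all. The 95% interval of the difference, replicate 1 minus replicate 2, left out 0 for 3 exons. These were Hnrnpa1 159 nt (-23.2 to -2.15 points), Hnrnpr 169 nt (1.58 to 39.6) and Mbnl2 95 nt (0.641 to 17.1). Of these, Hnrnpr 169 nt had an unadjusted exact Fisher p of 0.0571. The intervals were unadjusted and computed for members only, so the share of all variable exons that they would name is not known.

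**Figure D3:**
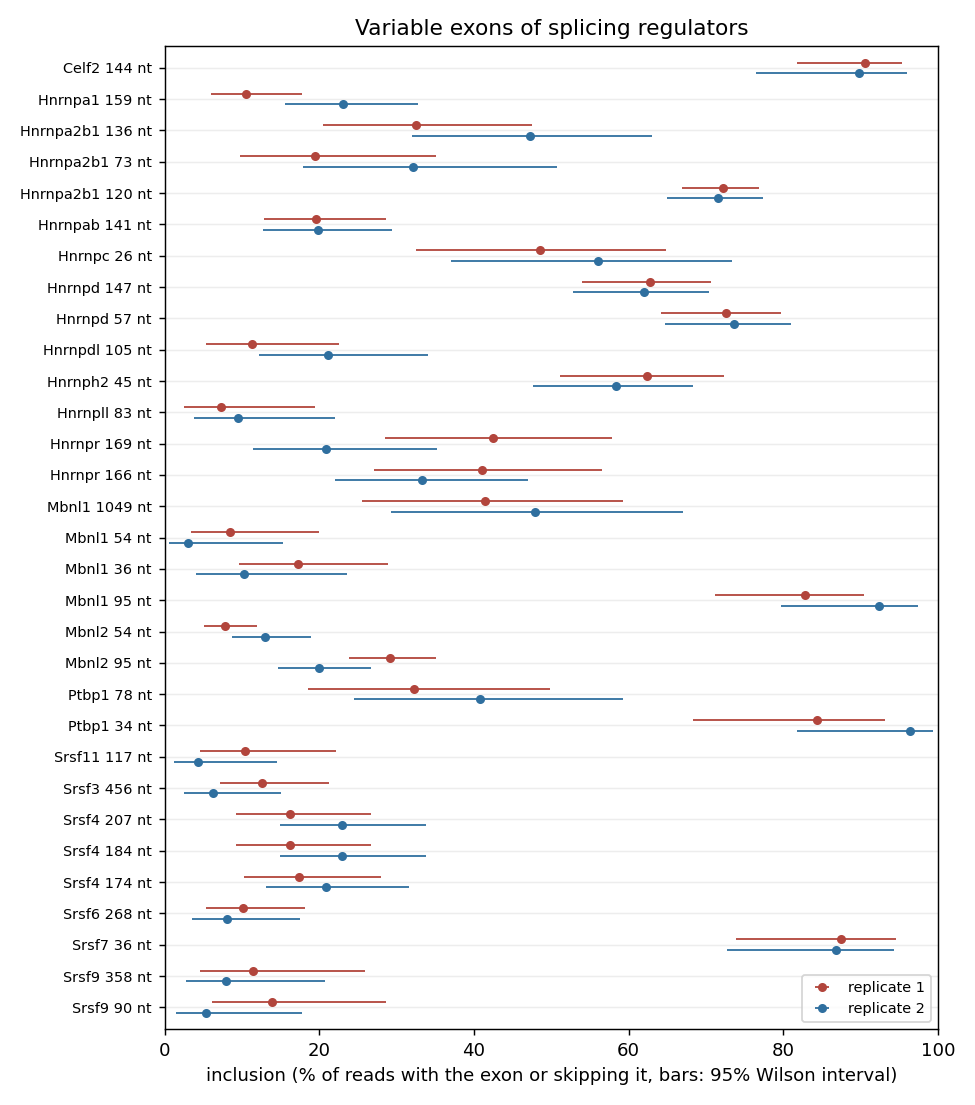
Inclusion of the 31 variable exons in percent of the reads that contain exactly the exon or skip it whole, named by gene and exon length in nt, with replicate 1 above replicate 2 and bars for 95% Wilson intervals. The exons of Srsf3, Srsf4, Srsf6, Srsf9, Srsf11 and Hnrnpll whose stops are shown above lie at 23.0% or below in both libraries.

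The poison exons of the SR genes were included in a minority of reads. The 456-nt exon of Srsf3, which regulates its own splicing, was in 11 of 87 reads in replicate 1 (12.6%) and 4 of 64 in replicate 2 (6.25%). The Srsf6 exon was in 9 of 89 (10.1%) and 5 of 62 (8.06%). The Srsf11 exon was in 5 of 48 (10.4%) and 2 of 46 (4.35%), and the Srsf9 exon of 358 nt in 4 of 35 (11.4%) and 3 of 38 (7.89%). Srsf4 was highest of these, with its 207-nt exon in 11 of 68 reads (16.2%) in replicate 1 and 17 of 74 (23.0%) in replicate 2. The Srsf4 and Srsf11 exons were read only on unannotated models, while those of Srsf3, Srsf6 and Srsf9 were also read on annotated transcripts. In Srsf4, new combinations of annotated splice sites held 10 reads in replicate 1 and 17 in replicate 2. As decay removes such transcripts, these shares describe the RNA that was present and not how often the exon was spliced in.

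Srsf4 carries 3 exons, of 207, 184 and 174 nt, that the annotation holds only in transcripts annotated for decay. The stop shown above lies in the 207-nt exon, and the annotation places those of 184 and 174 nt in the 3′ UTR. The reads counted here held the exons of a pair together or not at all. Reads with another version were left out, 2 and 0 for the 184-nt exon and 1 and 2 for the 174-nt exon. Of reads spanning the exons of 207 and 184 nt, 10 in replicate 1 and 17 in replicate 2 held both, 57 and 57 held neither, and 0 and 0 held only 1. The same held for the exons of 184 and 174 nt, with 11 and 15 reads holding both, 57 and 57 holding neither and none holding 1 alone. In Srsf9 the exons of 358 and 90 nt were together in 3 reads of replicate 1 and 2 of replicate 2, and apart in 2 and 0 reads.

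Among hnRNPs, decay-linked exons were found in Hnrnpll (83 nt, in 3 of 41 reads in replicate 1 and 4 of 42 in replicate 2; 3 of 41 and 1 of 38 over annotated transcripts alone) and Hnrnpdl (105 nt, in 11.3% and 21.2%). Coding exons spanned a wide range of inclusion, and 3 of the 4 given here were within 1 point between libraries. The 120-nt exon of Hnrnpa2b1 was in 220 of 305 reads (72.1%) in replicate 1 and 141 of 197 (71.6%) in replicate 2. The 147-nt exon of Hnrnpd was in 79 of 126 (62.7%) and 70 of 113 (61.9%), while the 141-nt exon of Hnrnpab was in 19 of 97 (19.6%) and 17 of 86 (19.8%). The intervals of the Hnrnpd and Hnrnpab exons did not overlap in either library, at 54.0 to 70.6 against 12.9 to 28.6 in replicate 1 and 52.7 to 70.4 against 12.7 to 29.4 in replicate 2. The 159-nt exon of Hnrnpa1, which lengthens its C-terminal glycine-rich region, was in 11 of 105 reads (10.5%) in replicate 1 and 21 of 91 (23.1%) in replicate 2. That difference of -12.6 points had an exact Fisher p of 0.0204 and an adjusted p of 0.734.

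The 147-nt and 57-nt exons of Hnrnpd give its known protein forms in 4 combinations, and all 4 were read. Both exons were in 51 of 123 reads in replicate 1 (41.5%) and 50 of 110 in replicate 2 (45.5%). The 57-nt exon alone was in 30.9% and 28.2%, the 147-nt exon alone in 20.3% and 16.4%, and neither in 7.32% and 10.0%. The product of the separate inclusion shares was 44.7% and 45.5%, close to the share with both.

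Variable exons of hnRNPs also lie in untranslated ends. The 26-nt exon of Hnrnpc, in the 5′ UTR, was in 48.5% of reads in replicate 1 and 56.0% in replicate 2, and the 45-nt 5′ UTR exon of Hnrnph2 in 62.3% and 58.3%. A 3′ UTR exon of Hnrnpa2b1 came in a 136-nt version and an unannotated 73-nt version with the same acceptor. Of the reads that held either version or skipped both, the 136-nt version was in 14 of 50 in replicate 1 (28.0%) and 17 of 45 in replicate 2 (37.8%), and the 73-nt version in 14.0% and 20.0%.

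A partly coding exon of Hnrnpr used 2 acceptors that are 3 nt apart. Counted in the same way, the 169-nt version was in 17 of 56 reads in replicate 1 (30.4%) and 9 of 60 in replicate 2 (15%), and the 166-nt version in 28.6% and 28.3%. The exon was skipped whole in 41.1% and 56.7%. Against whole skipping alone, as tested, the 169-nt version had an exact Fisher p of 0.0571 and an adjusted p of 0.969. Those tested shares, shown in the plot of inclusion, were 42.5% and 20.9% for the 169-nt and 41.0% and 33.3% for the 166-nt version of Hnrnpr. For Hnrnpa2b1 they were 32.6% and 47.2% for the 136-nt and 19.4% and 32.1% for the 73-nt version.

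The MBNL exon of 54 nt was mostly skipped in both paralogues. It was in 4 of 47 Mbnl1 reads in replicate 1 (8.51%) and 1 of 33 in replicate 2 (3.03%), and in 19 of 242 Mbnl2 reads in replicate 1 (7.85%) and 22 of 169 in replicate 2 (13.0%). The 95-nt exon was mostly included in Mbnl1 and mostly skipped in Mbnl2: it was in 48 of 58 Mbnl1 reads (82.8%) and 36 of 39 (92.3%), but in 72 of 247 Mbnl2 reads (29.1%) and 34 of 170 (20.0%). The 95-nt intervals of the paralogues did not overlap in either library (71.1 to 90.4 for Mbnl1 against 23.8 to 35.1 for Mbnl2 in replicate 1, and 79.7 to 97.3 against 14.7 to 26.6 in replicate 2). The Mbnl2 exon differed by 9.15 points between libraries, with an exact Fisher p of 0.0395 and an adjusted p of 0.932. Over annotated transcripts alone its mean inclusion was 97.5% in place of 24.6%, as the main skipping model of Mbnl2 is a new combination of annotated sites.

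Most Mbnl2 reads spanning both exons held neither the 54-nt nor the 95-nt exon, 162 of 241 in replicate 1 (67.2%) and 120 of 169 in replicate 2 (71.0%). The 95-nt exon alone was in 24.9% and 16.0%, the 54-nt exon alone in 4.98% and 8.88%, and both in 7 and 7 reads. Those reads with both were 2.90% and 4.14%, where the product of the separate inclusion shares was 2.19% and 2.62%. In Mbnl1, no read held both the 54-nt and a 36-nt coding exon, with 4 and 1 reads holding the first alone and 7 and 4 holding the second alone. The product of their separate shares was only 1.27% of 47 reads and 0.367% of 33. The absence of reads with both therefore does not show that these exons exclude each other. The 36-nt exon was in 17.2% and 10.3% of Mbnl1 reads. A long Mbnl1 exon of 1049 nt that holds the start of the coding sequence was in 12 of 29 reads and 11 of 23.

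**Figure D4:**
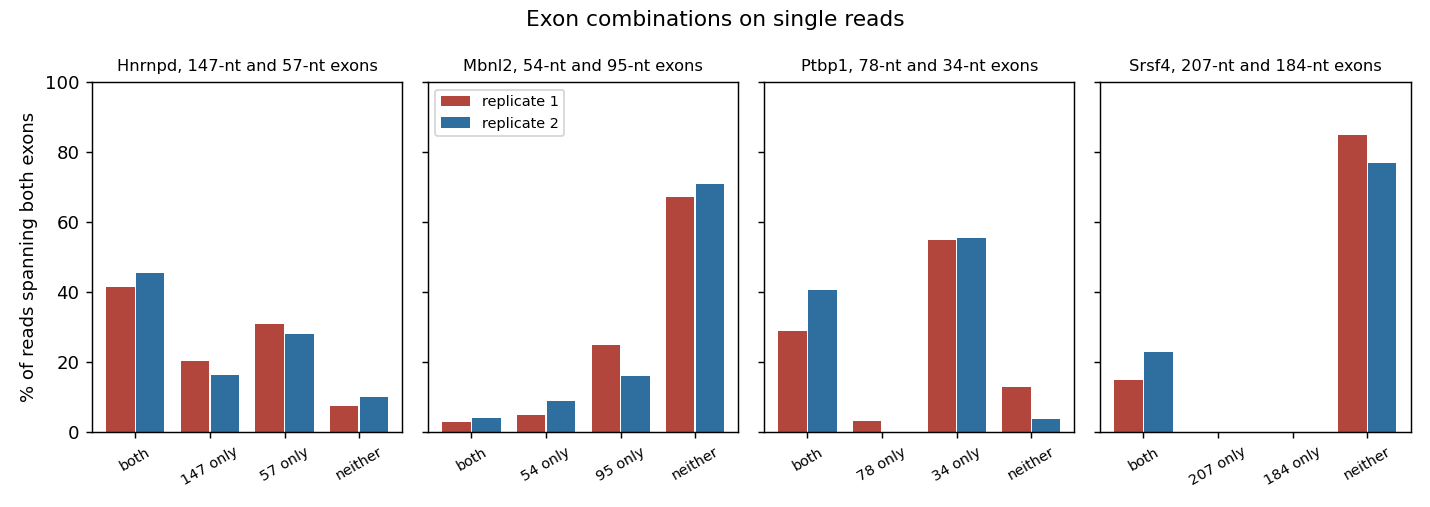
Combinations of 2 exons on single reads of Hnrnpd, Mbnl2, Ptbp1 and Srsf4, in percent of reads spanning both exons, with replicate 1 left of replicate 2. Hnrnpd shows all 4 combinations, and Srsf4 shows only reads with both exons or neither.

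Ptbp1 is known for an exon of 34 nt whose loss exposes the transcript to decay, and here it was in 27 of 32 reads in replicate 1 (84.4%) and 26 of 27 in replicate 2 (96.3%). The 78-nt exon, which separates Ptbp1 protein forms of unlike repressor strength, was in 10 of 31 (32.3%) and 11 of 27 (40.7%). Of reads spanning both, 17 and 15 held the 34-nt exon alone. Celf2 included its 144-nt coding exon in 67 of 74 reads (90.5%) and 35 of 39 (89.7%). Srsf7 included a 36-nt exon in 35 of 40 (87.5%) and 33 of 38 (86.8%).

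Intron retention was measured as the share of reads that cover an intron as exon, with 10 nt or more on each side, among those reads and the reads that splice it. Of 258 member introns with 20 or more such reads in each library, 11 (4.26%) were retained in 5% to 95% of pooled reads, in 7 genes, against 1.76% of 39402 introns over all genes. None of the 11 was called different between libraries (two-sided Fisher's exact test with Benjamini-Hochberg, 4.34% of all 692 called). The 95% interval of the difference left out 0 for the 1229-nt intron of Srsf5 (4.94 to 30.4 points). This interval too was unadjusted and computed for members only, so the share over all retained introns is not known.

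Srsf2 and Srsf1 each have an intron behind or at the end of the coding sequence that is spliced in transcripts annotated for decay. The 502-nt intron in the Srsf2 3′ UTR (chr11:116850354-116850855, - strand), spliced in 2 annotated decay transcripts and 1 protein-coding transcript, was unspliced in 116 of 126 reads in replicate 1 (92.1%) and 103 of 111 in replicate 2 (92.8%). The 881-nt Srsf1 intron (chr11:88050096-88050976, + strand) was unspliced in 19 of 25 (76.0%) and 19 of 22 (86.4%). The forms with these introns kept were thus the main forms in both libraries.

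Introns of the coding part were kept less often. The 1229-nt intron of Srsf5 (chr12:80947866-80949094, + strand) was kept in 28 of 88 reads in replicate 1 (31.8%) and 9 of 67 in replicate 2 (13.4%). It was the sole member intron with an unadjusted p under 0.05 (exact Fisher p 0.00816, adjusted p 0.122, difference 18.4 points), 1 of 11 (9.09%) against 13.4% of all retained introns. Over annotated transcripts alone it was kept in 8 of 60 reads in replicate 1 (13.3%) and 1 of 52 in replicate 2 (1.92%). The 874-nt intron of Srsf7 was kept in 10 of 38 (26.3%) and 8 of 37 (21.6%), or in 16.7% and 14.8% over annotated transcripts alone. The 111-nt intron of Hnrnpl was kept in 11 of 89 (12.4%) and 14 of 94 (14.9%), and in 18 of 96 (18.8%) and 28 of 108 (25.9%) where 1 nt on each side was enough. In the 3′ UTR of Hnrnpdl, a 1119-nt intron was kept in 16.1% and 8.89%. The other 5 introns, in Hnrnpa2b1, Srsf1 and Srsf2, were kept in 4.55% to 20.0% of reads; the 1059-nt intron of Srsf2 was kept in 6.56% and 7.62%, or in 0.926% and 3.13% over annotated transcripts alone.

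**Figure D5:**
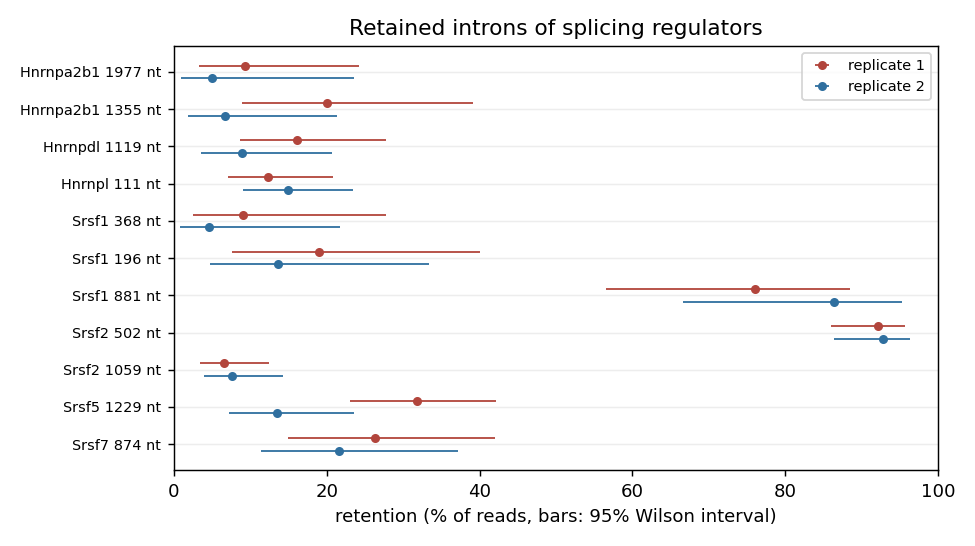
Retention of the 11 introns kept in 5% to 95% of reads, named by gene and intron length in nt, with replicate 1 above replicate 2 and bars for 95% Wilson intervals. The Srsf2 502-nt and Srsf1 881-nt introns lie at 76.0% or above, and the other 9 at 31.8% or below.

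The remaining splicing machinery was taken from a list of 45 kinases, spliceosome parts and RNA-binding proteins, of which 42 were listed; Nova2, Esrp1 and Msi1 were not. Srpk3, the muscle kinase of SR proteins, had the highest level, 304 CPM in replicate 1 and 345 CPM in replicate 2, above its paralogue Srpk1 at 18.3 and 18.0 CPM. Of 33 tested, 1 was called at 2-fold, Sfpq, with 55 reads in replicate 1 and 19 in replicate 2 (log2 fold 1.25, adjusted exact p 0.0113). Of the 14 genes of the nonsense-mediated decay list all were listed, led by Eif4a3 of the exon junction complex at 107 CPM (replicate 1) and 121 CPM (replicate 2). The helicase Upf1 had 74.2 and 53.1 CPM, and none of the 8 tested decay genes was called.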

How the data were processed

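Per the labels, both libraries were made from 2 µg of total RNA each and read as long molecules. The deposited values are raw counts of reads per transcript model, with no normalization, and models are listed from 1 read upward. Per the deposited descriptions the build is mm10 and the gene models are those of GENCODE M21; attributes in the annotation files name TALON. The sources used here do not give the aligner or tool versions. Replicate 1 cites pipeline document 3.1 and replicate 2 cites 3.0, per the labels, so the document and the animal cannot be told apart.

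Counts were summed per gene. A CPM is 1 read in 1000000.00 mouse reads, ERCC spike-ins excluded. Unannotated models were matched between libraries by intron chain, and unspliced unannotated models were summed per gene. Genes were tested at 20 or more reads in all by an exact conditional binomial test, and transcript shares, exons and introns with 20 or more reads in each library by Fisher's exact test, with Benjamini-Hochberg over all annotated genes. Calls needed an adjusted p under 0.05 and a 2-fold or 10-point difference. Differences are replicate 1 over, or minus, replicate 2. Wilson intervals of 95% and the limit of 3 reads cover counting error only. All listed members are accounted for. Exons and introns are named at inclusion or retention of 5% to 95%. Transcripts were to be named for the 15 members with the most reads, and a few others were added after their values were seen. Members and lists were chosen with earlier results of these data known. Ptbp3, a member, was left out of the list of other splicing genes.

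Strand use in counting is not given, and 15 members overlap a gene on the opposite strand, so reads of such pairs may be shared. Alternatives covered scaling by edgeR 4.0.16 TMM and DESeq2 1.42.0 size factors (R 4.3.3), read minima, model classes, the inclusion window, the overhang and each library alone. The tests were checked on simulated data. Python 3.11.15, numpy 2.4.6, scipy 1.17.1, pandas 2.3.3 and matplotlib 3.10.9 were used.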

Additional observations from a re-analysis of the deposited data

How the results depend on the processing

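No member gene was called under TMM, DESeq2 size factors, 5, 100 or no minimum reads, annotated transcripts only, or without the genomic class; over all genes the calls were 59 at 100 reads in place of 207. The members' summed level of 3717 CPM was 2936 CPM over annotated transcripts and 3639 CPM without the genomic class, and 3697 to 3737 CPM with each library alone. Without incomplete and genomic models the transcript calls fell to 26 of 5789 tested in place of 58. Of 96 member transcripts tested there, 1 was called, the Hnrnpk chain whose class differs between libraries. With unspliced unannotated models kept apart by their own ID, an alternative chosen after seeing the data, 628 of 9187 transcripts were called. Of 111 member transcripts tested, 4 were called (Rbfox2, Mbnl1 and Rbm20), as such IDs are not shared between libraries. Variable member exons numbered 14 of 157 measured at 50 spanning reads, against 647 of 17924 over all genes, in place of 31 of 267. They numbered 17 over annotated transcripts and 30 to 40 with each library alone. Retained member introns numbered 4 at 50 reads and 4 over annotated transcripts in place of 11, and 11 to 19 with each library alone. Over all genes, intron calls were 0 over annotated transcripts in place of 30. Member levels moved by more than 1 SD in 32 of 44 genes over annotated transcripts and in 6 without the genomic class; with n = 2 that SD is itself uncertain. No paired analysis was possible because the libraries form 1 group. Among choices made after seeing the data, the Rbfox2 share of its pair with Rbfox1 averaged 54.6% without the genomic class in place of 71.1%. By a further such choice, models classed as using a new splice site held 5.84% of member reads without Hnrnpk in place of 11.1%. At a median of 51.5 spanning reads, small differences in inclusion were not detectable at this depth.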
